A study of Homo sapiens with 25 samples.

Results

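The RNA captured with the S181E mutant of IGF2BP1 was compared between HCT116 colorectal carcinoma cells treated with sodium arsenite and cells given PBS. The members are the 6 of 25 libraries of the series that carry the labels S181E and RIP, 3 from arsenite (500 µM for 2 h) and 3 from control dishes. All 6 came from one line that expressed mCherry-IGF2BP1 S181E. Both groups also carried IGF2BP2 KO and IGF2BP3 KO, the deletions of the 2 paralogs, and the inducible OsTIR1 gene of Tet-OsTIR1-PURO. The fusion protein was introduced with a lentivirus and the cells were sorted through a narrow mCherry gate, which makes the line a sorted population and not a single clone. Dishes were plated independently. The wild-type line was a separate line of the same labelled genotype apart from the mutated residue, and gave 3 libraries per treatment for comparison. Parental HCT116 cells without a fusion protein gave 1 library per treatment, which measured the RNA that came down with the beads alone.

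IGF2BP1 is an RNA-binding protein that recognizes mRNAs through KH domains and affects their localization, translation and stability. Arsenite is an oxidative stressor that halts translation initiation and drives mRNAs and RNA-binding proteins, IGF2BP1 among them, into stress granules. The mutated serine lies in the disordered linker between the RRM and KH domains, and its replacement by glutamate was made to mimic phosphorylation. In RNA immunoprecipitation (RIP), the tagged protein is captured from a lysate and the RNA that comes with it is sequenced. RNA-Seq of the same cells was not analysed here, so a change in the share of an mRNA that was bound and a change in the amount of that mRNA cannot be told apart.

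The 6 libraries held 23063983 to 39330883 counts, of which 63.3 to 76.6% fell on protein-coding genes. Mitochondrial rRNA took 35.2, 32.0 and 33.3% of the counts in the control libraries and 28.2, 24.9 and 22.2% in the arsenite libraries, with no overlap between the groups (two-sided exact permutation test, p = 0.1, the smallest that 3 against 3 libraries allow). Over the 8734 genes tested, pairs of libraries of the same treatment correlated with r between 0.961 and 0.993 on the log2 scale and pairs of different treatment with r between 0.821 and 0.839. The parental control library was shallow, with 742207 protein-coding counts against 15941432 for parental arsenite, so many mRNAs had no count there. The epithelial markers EPCAM, KRT8, KRT18, KRT19 and CDH1 were present in all 6 libraries, at 29.6 to 966 CPM. CDH17 and VIL1, which mark differentiated intestinal cells, were at or near 0. Defining fibroblast, leukocyte and endothelial markers such as DCN, PTPRC and CDH5 were also at or near 0, with COL1A1 at 4.87 to 9.73 CPM.

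Arsenite changed the RIP signal of most mRNAs in this line relative to the other mRNAs. Of the 8734 protein-coding genes tested, 5926 (67.8%) were called, 2905 (33.3%) higher in arsenite and 3021 (34.6%) lower. A gene was called where it differed by over 20% and its p, from the quasi-likelihood test of edgeR and adjusted after Benjamini and Hochberg, lay under 0.05. All adjusted p-values come from that test. A change of over 2-fold was called upward for 1216 genes (13.9%) and downward for 1049 (12%). The log2 fold change, always arsenite minus control, ran from -3.44 to 6.46 with a median of -0.0026. The 3 arsenite values lay all above or all below the 3 control values for 6363 genes (72.9%), among them 5738 of the 5926 called. Values of single genes are given as CPM, the TMM-scaled share of protein-coding counts, not divided by length.

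**Figure D1:**
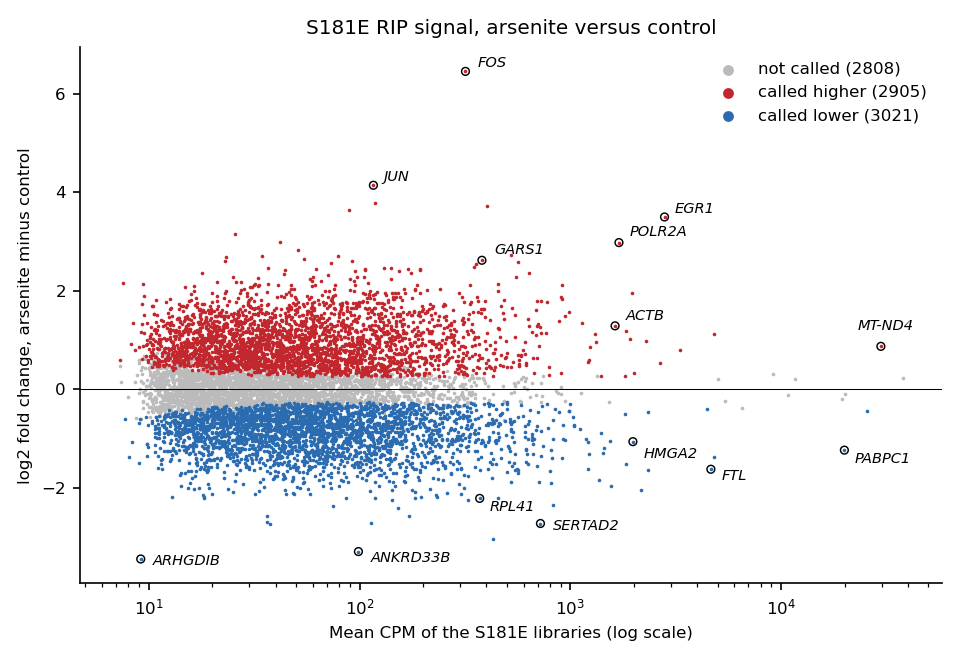
Each of the 8734 tested genes is a point, at its mean CPM over the S181E libraries (x axis, log scale) and its log2 fold change, arsenite minus control (y axis). Red points are the 2905 genes called higher and blue points the 3021 called lower. FOS stands highest at 6.46 and ARHGDIB lowest at -3.44.

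The largest increases were those of immediate early mRNAs, which encode transcription factors and phosphatases made within minutes of a stimulus. FOS, the AP-1 subunit, had 5.27, 8.63 and 7.31 CPM in the control libraries and 626, 613 and 648 CPM in the arsenite libraries, a log2 fold change of 6.46 ± 0.34 (SE, adjusted p = 3.1e-13). JUN, its partner in AP-1, had 11.1, 13.2 and 12.4 CPM in control and 197, 216 and 249 CPM in arsenite (log2 fold change 4.15 ± 0.15). The zinc finger factor EGR1 had 424, 361 and 553 CPM in control and 5322, 4771 and 5353 CPM in arsenite (3.50 ± 0.19). In all 3 mRNAs the arsenite values stood far outside the range of the control values. Groups without overlap were a condition for naming them, met by 72.9% of all tested genes. EGR2, FOSB and the MAP kinase phosphatase DUSP1 also stood among the 10 highest, with log2 fold changes of 3.78, 3.72 and 3.63. NFKBIZ, an atypical IκB protein, followed at 3.15.

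The bead background of these mRNAs also differed between treatments. In the parental arsenite library FOS stood at 1271 CPM, JUN at 730 CPM and FOSB at 1971 CPM, each above all 3 S181E arsenite libraries. EGR1 stood at 1817 CPM there, below all 3. In the parental control library FOS, EGR2, FOSB and DUSP1 had no count. Over the whole list of immediate early and AP-1/EGR genes, 23 of 48 tested members were called higher and 16 lower, with a median log2 fold change of 0.26. The members that fell included MAFG (-1.96), a small partner of AP-1 and NRF2, FOSL2 (-1.95), a FOS relative, SRF (-1.62), the serum response factor, and ID2 (-1.58), an inhibitor of bHLH factors. MYC fell by 0.26 on the log2 scale (adjusted p = 0.014), a call that was lost under several alternatives, total-count scaling and leaving out control replicate 1 or 2 or arsenite replicate 3 among them.

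The other mRNAs among the 10 with the highest log2 fold change were those of POLR2A, NOMO2 and HSPA1B. POLR2A, the largest subunit of RNA polymerase II, had 370, 330 and 428 CPM in control and 2924, 2695 and 3456 CPM in arsenite (log2 fold change 2.98 ± 0.16, adjusted p = 5.3e-13). NOMO2, a subunit of an ER membrane complex, rose by 3.00, and HSPA1B, an inducible HSP70, by 2.84. Both have near-identical copies in the genome, and multi-mapping reads were not counted by the authors, which makes their levels uncertain.

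**Figure D2:**
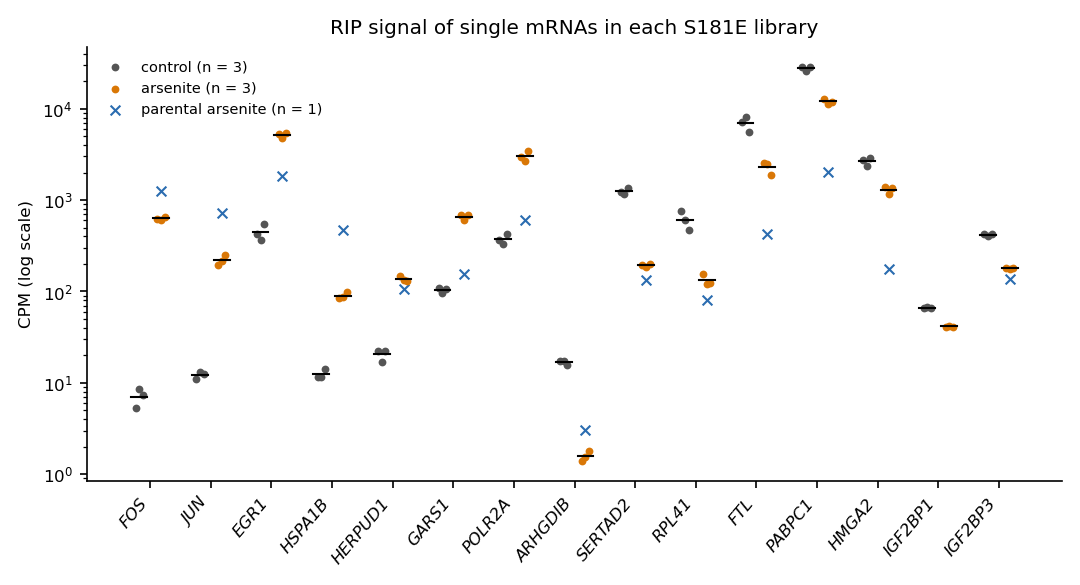
CPM (y axis, log scale) of 15 mRNAs in each S181E control library (grey points) and arsenite library (orange points), with bars at the means of 3 libraries. Blue crosses mark the single parental arsenite library, which had no count for IGF2BP1. The 2 groups of S181E libraries do not overlap for any of the 15, as for 72.9% of all tested genes. This was a condition for naming FOS, JUN, EGR1, HSPA1B, POLR2A, ARHGDIB and SERTAD2. FOS, JUN, HSPA1B and ARHGDIB lie below the parental arsenite value in all 3 arsenite libraries.

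The mRNAs that fell most encode proteins of mixed function. ARHGDIB, a GDP-dissociation inhibitor of small GTPases, had 17.3, 17.4 and 15.6 CPM in control and 1.38, 1.53 and 1.80 CPM in arsenite, a log2 fold change of -3.44 ± 0.33 (adjusted p = 3.9e-09). SERTAD2, a transcriptional coregulator, had 1239, 1169 and 1343 CPM in control and 194, 185 and 200 CPM in arsenite (-2.72 ± 0.13). PARD6B, a cell polarity protein, had 209, 179 and 198 CPM in control and 30.9, 29.5 and 29.9 CPM in arsenite (-2.72 ± 0.11). The arsenite values of each were close together. All lay below the control values, and groups without overlap were a condition for naming these genes. ANKRD33B (-3.29), the O-mannosyl kinase POMK (-3.04), the stress-induced autophagy protein TP53INP1 (-2.73), the deubiquitinase YOD1 (-2.70), the cytokine CLCF1 (-2.56), the diphosphoinositol phosphatase NUDT3 (-2.56) and C5orf24 (-2.40) completed the 10 lowest. In the parental arsenite library SERTAD2 stood at 133 CPM and PARD6B at 33.2 CPM, near the S181E arsenite values of the latter. PARD6B, ARHGDIB (3.03 CPM there), ANKRD33B (63.0), POMK (135.5), TP53INP1 (16.0), YOD1 (24.7) and CLCF1 (17.1) lay below that level in every S181E arsenite library. SERTAD2, NUDT3 (38.4) and C5orf24 (46.65) lay above it in every one.

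The mRNAs with the most CPM among those called were HMGA1, PABPC1, FTH1, FTL and MT-ND1 downward and MT-ND4, PHLDA1, PFN1, EGR1 and ACTG1 upward. PABPC1, the cytoplasmic poly(A)-binding protein, had 28790, 26040 and 28720 CPM in control and 12850, 11350 and 11970 CPM in arsenite (log2 fold change -1.23 ± 0.12, adjusted p = 5.2e-09). The ferritin light chain mRNA FTL went from 7180, 8201 and 5555 CPM to 2563, 2477 and 1874 CPM (-1.62 ± 0.16). FTH1, the heavy chain, went from 7301, 7039 and 6273 CPM to 2955, 2957 and 2179 CPM (-1.37 ± 0.12). For PABPC1 and both ferritin chains the arsenite libraries lay below every control library, and PABPC1 remained above the 2043 CPM of the parental arsenite library. HMGA1, an architectural chromatin protein, fell by 0.44, and PHLDA1, a pleckstrin homology protein, rose by 1.13. The mRNA of profilin PFN1 rose by 0.81 and that of γ-actin ACTG1 by 0.54.

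For the bait itself and for mRNAs known as IGF2BP1 targets, the changes went both ways. IGF2BP1 reads, which include those of the fusion transcript, stood at 65.9, 68.0 and 65.1 CPM in control and 40.8, 42.3 and 41.2 CPM in arsenite (log2 fold change -0.70 ± 0.12, adjusted p = 1.5e-05), with no count in either parental library. IGF2BP2 fell by 0.50 and IGF2BP3 by 1.25, the latter from 425, 401 and 429 CPM to 180, 176 and 182 CPM. Transcripts of both deleted paralogs were thus still counted, and these counts do not measure their proteins. HMGA2, a chromatin protein with a long-studied IGF2BP link, had 2768, 2351 and 2868 CPM in control and 1385, 1165 and 1347 CPM in arsenite (-1.06 ± 0.12), against 176 CPM in parental arsenite. ACTB, the β-actin mRNA whose zipcode gave the family its other name, rose from 894, 1125 and 784 CPM to 2352, 2456 and 2166 CPM (1.29 ± 0.15), and stood at 3084 CPM in parental arsenite.

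Of 29 tested genes on the list of IGF2BP1 targets and bait, 11 were called higher and 14 lower, with a median of -0.26. CTNNB1, which encodes β-catenin, rose by 2.04, the retroelement-derived PEG10 by 1.36 and the hyaluronan receptor CD44 by 1.12. The polycomb component PHC3 fell by 0.96. XBP1, the transcription factor of the unfolded protein response, had 48.0, 45.5 and 46.6 CPM in control and 77.0, 68.5 and 66.4 CPM in arsenite (0.57 ± 0.17). The translation factor EIF2A went from 165, 162 and 164 CPM to 129, 127 and 125 CPM (-0.39 ± 0.09). The lysosomal lipase LIPA rose by 0.82. IGF2 and CCDC127 did not pass the filter on low values, which asked for over 10 CPM in 11.5 or more of 23 libraries with an mCherry fusion.

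Lists of genes with a shared role differed widely in how many members moved. The highest medians were those of the cytosolic aminoacyl-tRNA synthetases (1.51), which charge tRNAs with amino acids, and of the heat shock chaperones (1.16), and the lowest was that of the cytosolic ribosomal proteins (-0.72). The median of all tested genes was -0.0026, with 33.3% called higher and 34.6% lower. A list's count and median describe it, and no list was tested against the other genes.

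**Figure D3:**
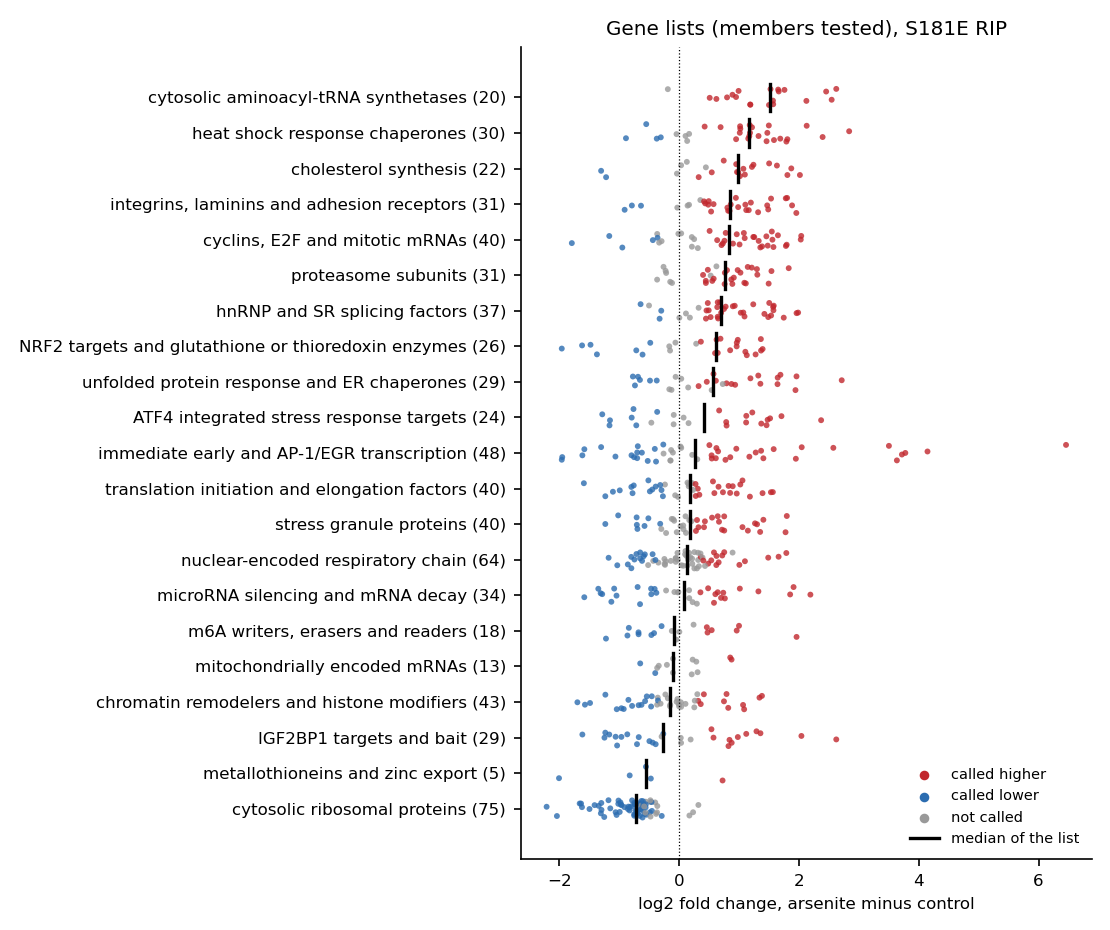
Log2 fold change, arsenite minus control (x axis), of the tested members of 21 gene lists, with the number tested in brackets. Points are genes, red where called higher, blue where called lower and grey where not called. Black bars are list medians, and the dotted line is the median of all tested genes. The aminoacyl-tRNA synthetases have the highest median, 1.51, and the ribosomal proteins the lowest, -0.72.

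Among the aminoacyl-tRNA synthetases, 19 of 20 were called higher and none lower. GARS1, the glycyl-tRNA synthetase, had 109.9, 96.6 and 108 CPM in control and 678, 600 and 692 CPM in arsenite (log2 fold change 2.62 ± 0.12, adjusted p = 3.5e-14), above the 157 CPM of parental arsenite. VARS1 rose by 2.55, the bifunctional EPRS1 by 2.45 and AARS1 by 2.12. QARS1, the glutaminyl enzyme, was the exception, with 147, 178 and 142 CPM in control and 130, 152 and 134 CPM in arsenite (-0.19 ± 0.11, adjusted p = 0.11). The summed signal of the 20 genes was 1359 to 1446 CPM in control and 4242 to 4330 CPM in arsenite. The parental libraries, without any bait, held 1691 CPM in control and 3783 CPM in arsenite, so the sum was higher with arsenite there too.

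To show the sequence context of these genes, the letters TGATGNAA, the core that ATF4 and its partners recognize, were searched on both strands of RefSeq promoters (GRCh38.p14, 250 bases before to 50 after the start). They were found in 3.67% of all 27305 promoters and in 6 of 16 synthetase promoters with an entry, those of AARS1, CARS1, IARS1, MARS1, NARS1 and TARS1. All 6 genes were called higher. The median log2 fold change was 1.53 for them and 1.26 for the synthetases without the match, so mRNAs of both kinds rose. The 3 with the highest log2 fold change are shown 5′ to 3′ on the gene's strand, with the match in capitals, here on the opposite strand.
AARS1: ttttctcgcagTTGCATCAgccaagttaga
MARS1: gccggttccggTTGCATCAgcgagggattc
IARS1: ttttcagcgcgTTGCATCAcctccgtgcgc
The windows lie at chr16:70289675-70289704 (minus strand) for AARS1, chr12:57488053-57488082 (plus strand) for MARS1 and chr9:92293692-92293721 (minus strand) for IARS1. The log2 fold changes of these genes were 2.12, 1.65 and 1.57.

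Heat shock chaperones, which refold or hold damaged proteins, were called higher in 22 of 30 tested genes and lower in 4. The co-chaperone BAG3 had 45.9, 54.7 and 44.2 CPM in control and 255, 244 and 276 CPM in arsenite (2.40 ± 0.11, adjusted p = 3.7e-14). HSP90AB1, the constitutive HSP90, had 327, 354 and 323 CPM in control and 1273, 1609 and 1589 CPM in arsenite (2.13 ± 0.11). Both stood below the parental arsenite library, at 294 CPM for BAG3 and 3468 CPM for HSP90AB1. Summed over the 30 tested genes, the signal was 3192 to 3513 CPM in control and 7249 to 8207 CPM in arsenite. The parental sums were 6290 CPM in control and 16620 CPM in arsenite. DNAJB4 (-0.89), HSPE1 (-0.55), DNAJB6 (-0.37) and the heat shock factor HSF1 (-0.31) were the members that fell. HSPA1A passed only the more permissive filter, with 0 to 1.51 CPM in control and 2.80 to 4.44 CPM in arsenite.

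The alternating cores of a heat shock element, GAA, TTC and GAA with NN between neighbours, were found on either strand of 0.487% of all promoters and of 6 of 32 chaperone promoters. Of the 5 tested genes among these 6, 4 were called higher, and the median was 1.17 with and 1.17 without the match. The 3 called highest are shown with the match in capitals.
SERPINH1: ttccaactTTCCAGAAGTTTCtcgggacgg
DNAJA1: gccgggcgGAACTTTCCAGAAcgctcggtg
HSPA8: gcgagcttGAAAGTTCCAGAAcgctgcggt
These lie at chr11:75562169-75562198 (plus), chr9:33025268-33025297 (plus) and chr11:123062345-123062374 (minus). SERPINH1, a collagen chaperone, rose by 1.46, the HSP40 DNAJA1 by 1.32 and the constitutive HSP70 HSPA8 by 1.17.

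Genes of the unfolded protein response and ER chaperones were called higher in 16 of 29 and lower in 6, with a median of 0.57. HERPUD1, an ER membrane protein of the degradation pathway, had 22.4, 16.9 and 22.1 CPM in control and 147, 134 and 131 CPM in arsenite (2.71 ± 0.19, adjusted p = 2.1e-11). HSPA5, the ER HSP70 known as BiP, had 72.8, 108 and 88.7 CPM in control and 171, 223 and 291 CPM in arsenite (1.32 ± 0.17), below the 849 CPM of parental arsenite. EDEM1, which sorts misfolded glycoproteins, fell by 0.77. The ER stress element, CCAAT and CCACG with 9 bases of any kind between them, occurred in 0.0806% of all promoters, on either strand, and in 7 of 28 promoters of this list. Of those 7 genes 5 were called higher. The 3 called highest are shown, with the element in capitals.
HSPA5: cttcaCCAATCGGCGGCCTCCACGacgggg
HSP90B1: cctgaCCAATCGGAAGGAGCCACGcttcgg
CALR: ccacgCGTGGTCGACCATCATTGGtcggtg
They lie at chr9:125241385-125241414 (minus), chr12:103930211-103930240 (plus) and chr19:12938379-12938408 (plus), with the CALR match on the opposite strand. HSP90B1, the ER HSP90, rose by 0.93 and the lectin chaperone calreticulin (CALR) by 0.79. A match is a description of letters in the window and was not tested as a site.

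Targets of ATF4, the transcription factor of the integrated stress response, were called higher in 12 of 24 and lower in 7. DDIT4, an mTORC1 inhibitor, had 7.11, 5.35 and 4.62 CPM in control and 27.5, 34.9 and 27.8 CPM in arsenite (2.37 ± 0.23, adjusted p = 3.5e-09), with 66.7 CPM in parental arsenite. The stress sensor SESN2 rose by 1.71, the serine pathway enzyme PHGDH by 1.37 and the glutamine carrier SLC1A5 by 1.46. ATF4 itself went from 238, 276 and 228 CPM to 93.0, 107 and 139 CPM (-1.16 ± 0.12), whereas parental arsenite held 350 CPM. The factor CEBPG fell by 1.28 and the cationic amino acid carrier SLC7A1 by 1.16. DDIT3, which encodes CHOP, passed only the permissive filter, at 1.55 to 2.29 CPM in control and 9.37 to 18.1 CPM in arsenite.

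Targets of the transcription factor NRF2 and the glutathione and thioredoxin enzymes were called higher in 15 of 26 and lower in 7. TKT and TALDO1, enzymes of the pentose phosphate pathway, rose by 1.37 and 1.13. HMOX1, the inducible heme oxygenase, rose from 8.36, 9.66 and 6.08 CPM to 20.5, 19.4 and 19.3 CPM (1.28 ± 0.24). TXNRD1, a thioredoxin reductase, moved the other way, from 889, 931 and 874 CPM to 308, 335 and 339 CPM (-1.48 ± 0.09, adjusted p = 9.7e-13), and the cystine carrier SLC7A11 fell by 0.72. The list's median was 0.61. The 2 ferritin chains and MAFG, named above, are among its members that fell. Of 5 tested metallothionein and zinc genes, 4 were called lower, led by the zinc exporter SLC30A1 (-2.01), and MT1X was called higher (0.72).

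mRNAs of the cytosolic ribosomal proteins moved in one direction where they were called. Of 75 tested, 61 were called lower and none higher, and 18 fell by more than 2-fold. RPSA, the laminin receptor of the small subunit, had 3675, 4164 and 2521 CPM in control and 893, 922 and 743 CPM in arsenite (-2.04 ± 0.19, adjusted p = 1.8e-09). RPL41 had 754, 603 and 471 CPM in control and 156, 119 and 125 CPM in arsenite (-2.21 ± 0.22). RPLP0, of the ribosomal stalk, had 3664, 4589 and 2360 CPM in control and 1212, 1352 and 897 CPM in arsenite (-1.64 ± 0.25). Control replicate 3 was the lowest control library in each of the 3 and still lay above all arsenite libraries. FAU (0.32), RPL8 (0.23) and RPS9 (0.17) were the only tested members with a value above 0, and none of the 3 was called. Over these genes the parental sums were 34710 CPM without and 37150 CPM with arsenite, while those of S181E lay between 30090 and 47570 CPM without and between 19690 and 22360 CPM with arsenite. Ribosomal protein genes have many processed pseudogenes, which could have taken reads in the authors' counting.

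Ribosomal protein mRNAs are known to start with a C followed by pyrimidines, a feature tied to translational control. At the RefSeq start, a C followed by at least 4 pyrimidines was present in 41 of 60 tested ribosomal protein genes with an entry (68.3%), in 5.94% of all 7194 tested genes with an entry and in 4.04% of all promoters. The 4 ribosomal protein genes with this start and the lowest log2 fold change are shown beside EEF1A1, the elongation factor, with the whole run of pyrimidines that covers the start in capitals.
RPL41: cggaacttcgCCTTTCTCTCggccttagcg
RPSA: cctgccgcctgTCTTTTCCgtgctacctgc
RPLP1: gcgcgagagCCCCTTTCCTCagctgccgcc
RPLP0: gggcgcgaggCCCTTCTCTCgccaggcgtc
EEF1A1: gccgtgaacgTTCTTTTTCgcaacgggttt
These windows lie at chr12:56116618-56116647 (plus), chr3:39406708-39406737 (plus), chr15:69452809-69452838 (plus), chr12:120201093-120201122 (minus) and chr6:73521015-73521044 (minus). The 386 genes with such a start that are no ribosomal protein genes had a median of -0.05, against 0.02 for those without it, and 135 of them were called lower and 112 higher. Among the tested ribosomal protein genes with an entry, the median was -0.79 with such a start and -0.64 without it. Among translation initiation and elongation factors, the 10 with such a start had a median of -0.18 and those without it 0.31. None of these differences was tested. EEF1A1 fell by 0.45.

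Translation initiation and elongation factors were split, with 18 of 40 called higher and 14 lower. EIF3B (1.56), EIF4A3 (1.53) and EIF3A (1.39) rose, whereas the cap-binding protein EIF4E (-1.59), PABPC1 and EIF3J (-1.11) fell. Proteasome subunits were called higher in 23 of 31 and lower in none, with PSMD1 at 1.83. Splicing factors of the hnRNP and SR families were called higher in 29 of 37 and lower in 3. HNRNPM went from 17.8, 21.3 and 16.0 CPM to 60.7, 74.5 and 86.9 CPM (1.99 ± 0.16), with 194 CPM in parental arsenite, and HNRNPA2B1 rose by 1.96.

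Cyclins, E2F and mitotic genes were called higher in 26 of 40 and lower in 5. The replicative helicase subunit MCM7 had 60.3, 68.4 and 58.9 CPM in control and 237, 283 and 264 CPM in arsenite (2.04 ± 0.14, adjusted p = 2.2e-11). All of these lay below its 482 CPM in parental arsenite. Cyclin A2 (CCNA2) rose by 2.03, while the kinase CDK6 (-1.79) and the factor E2F1 (-1.17) fell. Genes of cholesterol and fatty acid synthesis were called higher in 16 of 22, among them ACLY (2.02), FASN (1.87) and SREBF1 (1.81), and the regulators INSIG1 (-1.22) and STARD4 (-1.30) were the 2 called lower. Integrins, laminins and adhesion receptors were called higher in 24 of 31, led by CD55 (1.96), a complement inhibitor, and lower in 3, CD47 (-0.91), CD59 (-0.79) and MET (-0.64).

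Other lists also had members called in both directions. Stress granule proteins were called higher in 19 of 40 and lower in 8. UBAP2L, a granule scaffold, rose from 308, 286 and 364 CPM to 1154, 1030 and 1207 CPM (1.80 ± 0.14), while G3BP1, the nucleator, had 204, 198 and 214 CPM in control and 243, 246 and 233 CPM in arsenite (0.21 ± 0.10, adjusted p = 0.072). For microRNA silencing and mRNA decay the counts were 13 higher and 13 lower of 34, with the deadenylase subunit PAN2 at 2.19, the decapping enzyme DCP2 at -1.58 and AGO2 at -1.28. The m6A list had 6 higher and 8 lower of 18, with the methyltransferase METTL16 at -1.22.

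Chromatin remodelers and histone modifiers had 10 higher and 16 lower of 43, from KMT2C (-1.70) to SMARCC2 (1.38). Of the 171 tested genes with a ZNF symbol, which encode mainly zinc finger repressors, 83 were called lower and 21 higher, with a median of -0.38. Replication-dependent histones had 3 higher and 2 lower of 37. Nuclear-encoded respiratory chain genes had 15 higher, such as the ATP synthase subunit ATP5F1B (1.79), and 14 lower, such as ATP5PF (-1.18), of 64. Of the 13 mitochondrially encoded mRNAs, MT-ND4 (0.87) and MT-ND4L (0.85) were called higher and MT-ND1 (-0.40) and MT-ND3 (-0.65) lower. MT-ND4 had 19370, 16630 and 26190 CPM in control and 41380, 34100 and 40710 CPM in arsenite.

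Genes that were nearly absent in control cells could fail the filter, because only 11 of the 23 mCherry libraries came from arsenite. edgeR's filterByExpr kept 4683 further genes, of which 531 were called higher and 423 lower. Among the 8 with the highest fitted change were GDPD2, a phosphodiesterase, GPBAR1, a bile acid receptor, and CCDC28B. All 8 were at 0 in the 3 control libraries and at most at 1.44 CPM in an arsenite library, so no fold is given for them.

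The change also went with the structure of the mRNA. Coding and untranslated lengths were taken from the canonical transcript of each gene, and the coding share is the coding part of its length. This description was added after the values were seen. Genes called higher had a median coding share of 62.1%, with 1890 coding bases and 999 bases of 3′ UTR, while genes called lower had 31.4%, with 1140 coding bases and 2453 bases of 3′ UTR. For changes of over 2-fold the medians were 70.6% upward and 24.7% downward. With all tested genes in 5 classes of rising coding share, the median log2 fold changes were -0.68, -0.23, 0.06, 0.29 and 0.62. In the lowest class, with coding shares up to 25.9%, 67.7% of genes were called lower and 7.79% higher. In the highest class, from 71.3%, 58.3% were called higher and 13.3% lower. Across the 8734 genes, which are not independent replicates, Spearman's rho between coding share and log2 fold change was 0.49.

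The members named above follow the same order only in part. NUDT3 (a coding share of 5.21%), MAFG (9.60%), C5orf24 (11.1%), TP53INP1 (12.9%) and SERTAD2 (17.0%) fell, and GARS1 (91.0%), NOMO2 (86.6%), MCM7 (87.4%) and UBAP2L (84.1%) rose. Counter to it, JUN (30.5%) and FOSB (26.9%) rose, and PABPC1 (66.7%), POMK (56.2%) and FTL (60.3%) fell.

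**Figure D4:**
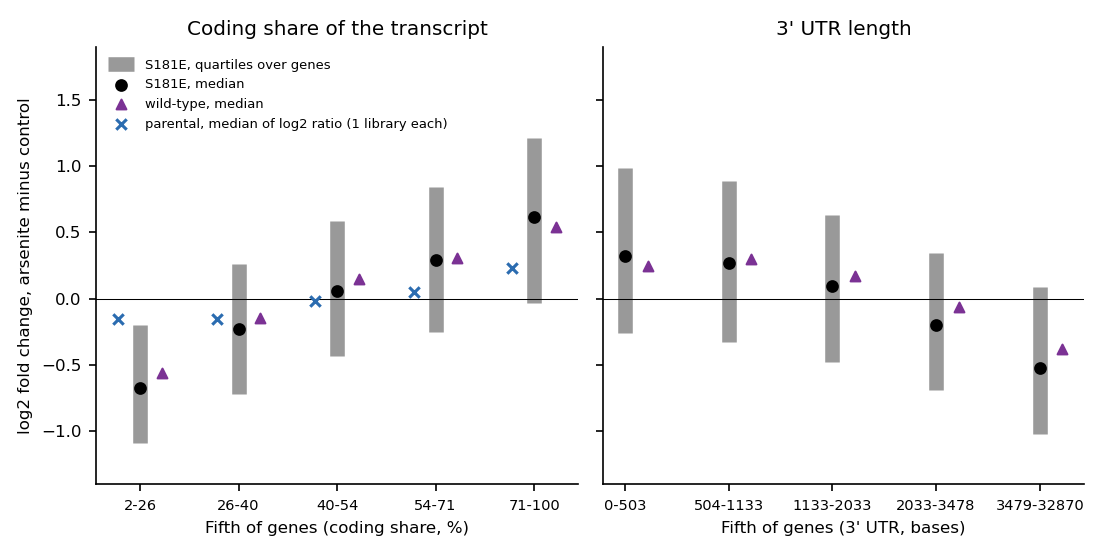
Median log2 fold change, arsenite minus control (y axis), of the tested genes in 5 classes by coding share in percent (left) and by length of the 3′ UTR in bases (right). Black points are S181E medians, grey bars the quartiles over genes, purple triangles the wild-type medians and blue crosses the parental log2 ratio, from 1 library per treatment. The S181E medians rise from -0.68 to 0.62 with coding share and go from 0.33 to -0.52 with 3′ UTR length.

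Length of the 3′ UTR alone gave medians from 0.33 in the shortest class to -0.52 in the longest (rho -0.35), and coding length gave medians from -0.50 to 0.30 (rho 0.32). Total exonic length varied less with the change, with class medians of 0.03, 0.20, 0.07, -0.12 and -0.24. The order by coding share was present among transcripts of like length and base composition. The class medians ran from -0.48 to 0.58 in the shortest of 3 groups by transcript length, from -0.61 to 0.84 in the middle and from -0.85 to 0.38 in the longest. They ran from -0.84 to 0.38 among genes of lower GC content and from -0.41 to 0.76 among those of higher GC content. Among the 768 genes with a parental arsenite count that stood at least 4-fold above it in wild-type arsenite they ran from -0.62 to 0.54, and among the 3757 genes below it from -0.59 to 0.72.

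The parental libraries, without any bait, showed a smaller order of the same direction. Over the 4889 genes with at least 20 counts in parental control, the median log2 ratio of arsenite to control was -0.16, -0.15, -0.02, 0.05 and 0.23 from the lowest to the highest coding share, where S181E gave -0.68, -0.21, 0.05, 0.31 and 0.63 for the same genes. With 1 parental library per treatment this has no replicate check. How much of the S181E change came from the bead background was not tested.

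The change was also described by enrichment over the bead background. The 3757 genes below the parental arsenite level in wild-type arsenite had a median log2 fold change in S181E of 0.12, and the 802 genes at least 4-fold above it a median of -0.02. Of the genes over 2-fold higher in S181E, 51.8% were below that level and 9.62% at least 4-fold above it. For genes over 2-fold lower these shares were 33.2 and 10.1%, and for all tested genes 43.0 and 9.18%. Classes set by wild-type control over the same parental arsenite library, which differ in treatment, gave another order, with medians of 0.51 for genes below 1, -0.24 from 1 to 2, -0.55 from 2 to 4 and -0.79 for genes at 4 or above. In S181E, 1025 genes stood at least 4-fold above parental arsenite in control and 720 in arsenite, 532 of them in both. Here too the control libraries were set against a background of the other treatment.

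Whether the response differed from that of the wild-type fusion protein was tested as the interaction of line and treatment. In wild-type, 3095 genes were called higher (35.4%) and 2780 lower (31.8%). Of the genes called higher in S181E, 2560 were also called higher in wild-type (88.1% of the S181E list and 82.7% of the wild-type list), 2475 were called lower in both (81.9 and 89.0%), and 4 were called in opposite directions. The interaction itself was called for 34 genes (0.389%), 10 higher and 24 lower in S181E, and 1128 had an unadjusted p under 0.05. These counts rest on the spread shared by all 23 mCherry libraries. With the 12 S181E and wild-type libraries alone, none was called, and 878 had an unadjusted p under 0.05.

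NR1D2, a circadian repressor, had the lowest adjusted p. In S181E it stood at 158, 150.0 and 161 CPM in control and 62.2, 65.4 and 66.1 CPM in arsenite (log2 fold change -1.30). In wild-type it stood at 82.4, 84.1 and 110.3 CPM in control and 78.0, 78.7 and 76.3 CPM in arsenite (-0.26), and the interaction was -1.04 ± 0.14 (adjusted p = 0.0012). The S181E arsenite libraries were all below the wild-type arsenite libraries, and the S181E control libraries were all above the wild-type control libraries. JUN rose more in S181E, by 4.15 against 3.09 in wild-type (interaction 1.06 ± 0.19, adjusted p = 0.029). Its wild-type control libraries stood at 29.7, 24.0 and 33.1 CPM, all above the S181E controls, and its wild-type arsenite libraries at 214, 244 and 286 CPM, which overlapped those of S181E.

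DSP, which encodes desmoplakin, had 117, 121 and 101 CPM in S181E control and 100.2, 102 and 115 CPM in S181E arsenite, a change that was not called (-0.12). In wild-type it fell by 1.14 (interaction 1.01 ± 0.17, adjusted p = 0.025). The parental libraries held 1536 CPM of DSP in control and 153 CPM in arsenite, above every S181E and wild-type library of that treatment. The neuronal microtubule protein MAP2 was likewise not called in S181E (0.05), and rose by 1.30 in wild-type (interaction -1.25 ± 0.27, adjusted p = 0.042), a difference called in 7 of 22 alternatives. IGF2BP3 fell by 1.25 in S181E and by 0.68 in wild-type (interaction -0.57, adjusted p = 0.033). Its S181E libraries stood above those of wild-type in control (401 to 429 against 227 to 261 CPM). They also did in arsenite (176 to 182 against 147 to 162 CPM).

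**Figure D5:**
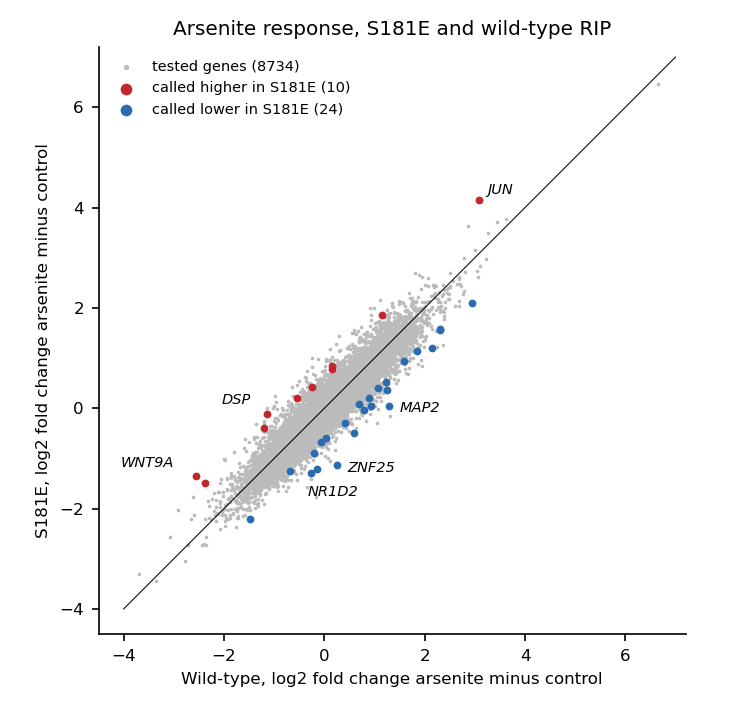
Log2 fold change, arsenite minus control, of each of the 8734 tested genes in wild-type (x axis) and in S181E (y axis), with the line of equal change. Red points are the 10 genes whose change was called higher in S181E and blue points the 24 called lower. JUN lies above the line (4.15 against 3.09) and NR1D2 below it (-1.30 against -0.26).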

How the data were processed

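The series measured RNA captured with mCherry-IGF2BP1 in HCT116 cells. The authors aligned reads to hg38 with STAR 2.7.11b and counted them on exons with featureCounts of Subread 2.0.6, strand setting 2 and GENCODE 46, per the file headers and the submitters' processing notes. The deposited values are raw counts for 63086 genes per library, with reads that map to several places or overlap several genes left out. Symbols came from GENCODE 44 (61547 identifiers matched with version, 545 not found, which held 0.0145 to 0.0298% of the counts).

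TMM scaling, CPM values and the models used R 4.3.3 (edgeR 4.0.16, with DESeq2 1.42.0 and limma 3.58.1 for alternatives), and tables and plots used Python. The 8734 genes tested were protein-coding and exceeded 10 CPM in 11.5 or more of 23 libraries with an mCherry fusion. A model with 8 groups was fitted to all 23, S181E arsenite was compared with S181E control, and the interaction took wild-type as reference, both with the quasi-likelihood test of edgeR and adjusted after Benjamini and Hochberg. P-values measure the spread between separately plated dishes of the same line and treatment, estimated over all 23 libraries. With 1 line per fusion protein, they do not measure the spread between lines. The parental libraries entered no test. CPM printed for genes were scaled over all 25 libraries. No 2 libraries were identical. Scripts were checked on simulated counts with known changes.

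The comparison, gene lists and named genes were chosen with earlier results of these data known. Named genes are those tied to the study's question (IGF2BP1 to IGF2BP3, ACTB, MYC, IGF2, XBP1, EIF2A, HMGA2, PABPC1, PHC3, GARS1, CCDC127, LIPA), the 10 highest and 10 lowest log2 fold changes among called genes whose groups did not overlap, the 5 called genes of highest CPM in each direction, the extreme called members of each list, the 8 highest called only with filterByExpr, and the 5 extreme interaction genes in each direction. Other members named beside a list's count were chosen after their values were seen. Alternatives covered the scaling, the test, the filter, the libraries in the fit, a replicate block and leaving out each library. Promoter sequences are from RefSeq, with 7194 tested genes matched by symbol. Some genes and 1 gene list are not reported here.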

Additional observations from a re-analysis of the deposited data

Results flagged for a closer look

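The difference between the S181E and the wild-type response to arsenite passed the test for 10 genes whose log2 fold change was higher in S181E and 24 whose log2 fold change was lower. The largest positive differences were those of WNT9A, a WNT ligand (1.21), JUN (1.06), DSP (1.01), SEMA7A, a membrane-anchored semaphorin (0.89), and HS6ST1, a heparan sulfate sulfotransferase (0.81). The largest negative ones were those of ZNF25, a zinc finger protein (-1.39), MAP2 (-1.25), INSIG1, a regulator of cholesterol synthesis (-1.08), ATAD5, which unloads PCNA from DNA (-1.08), and NR1D2 (-1.04). IGF2BP3, named for its place in the study, differed by -0.57. Most of these lay below the bead background, by mean wild-type arsenite over parental arsenite CPM. That ratio was 0.27 for WNT9A, 0.34 for JUN, 0.39 for SEMA7A, 0.50 for ATAD5, 0.64 for HS6ST1, 0.67 for DSP and 0.70 for INSIG1. It was 1.09 for NR1D2, 1.14 for IGF2BP3, 1.39 for ZNF25 and 8.15 for MAP2. Over 22 alternatives, NR1D2 was called in 21, DSP in 16, JUN in 15, INSIG1 in 14 and IGF2BP3 in 11. ZNF25 and SEMA7A were called in 10 of them, WNT9A and ATAD5 in 9, and MAP2 and HS6ST1 in 7. These differences rest on 3 libraries per group and on 1 line per fusion protein, so mutation and line cannot be told apart. The arsenite values of both lines overlapped for JUN, DSP, WNT9A, ATAD5 and ZNF25, whose control values did not. For NR1D2, IGF2BP3, MAP2 and HS6ST1 the lines overlapped in neither treatment, and for SEMA7A and INSIG1 in control alone.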

How the results depend on the processing

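Over the alternatives without a left-out library, genes called higher ranged from 2476 with glmTreat to 3375 with filterByExpr, and genes called lower from 2430 with all biotypes to 3391 with filterByExpr. Leaving out 1 library gave 2702 to 2795 higher and 2785 to 2988 lower. Another scaling moved the median of all genes to between -0.098, with TMM on background genes, and 0.036, with total counts, and all biotypes, which also changed the genes tested, gave 0.10. Across alternatives the list medians changed sign for mitochondrially encoded mRNAs, m6A factors, microRNA silencing and decay, and histones. Of 1454 values of 86 named genes, 1420 kept direction and call and 34 kept direction only. No value reversed.

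The interaction depended on the processing, and its cause was not tested. The counts higher and lower were 63 and 75 with DESeq2, 3 and 6 with TMM on background genes, those not above the parental library, 2 and 7 with no filter, 0 and 1 with glmTreat, and 0 and 0 with only the groups compared. Of 218 interaction values of 10 named genes, 100 kept direction but lost the call. All biotypes gave 4 higher and filterByExpr 5. Leaving out each library gave 0 to 20 higher and 1 to 69 lower, and every one of the 12 libraries moved a count by over 1.5 times. With a replicate block the counts were 63 and 207, and the genes called higher and the genes called lower with arsenite were 3037 and 3131. Same-numbered control and arsenite libraries correlated with 0.0728, 0.32 and 0.31 in their deviations, not all over 0.1, so the numbers were not taken as a pairing, although every library correlated best with its own number.

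The median of genes at least 4-fold over the parental level was -0.12 with TMM over genes at or below that level, 0.10 with all biotypes, -0.067 to 0.052 with 1 library left out, and -0.79 with classes set by wild-type control, which share control values of the same kind. The shallow parental control library limits ratios against it.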
